A study of Mus musculus with 6 samples.

Results

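Vgf, the granin family members Scg2, Scg3, Chga and Chgb, the prohormone convertase Pcsk1, the neurotrophic factors Bdnf and Gdnf and the opioid precursor Penk were examined in cultured mouse astrocytes expressing BRAF KE. These 9 genes were taken by name from a table of 55357 genes, and each name matched 1 entry. The cultures were primary, and their cells came from C57BL/6 cortex at embryonic day 18. In 3 cultures (KE), a CMV promoter plasmid coding for FLAG-tagged BRAF with the K499E change was transfected 48 hours before RNA extraction. The other 3 cultures (NT) carried the label non-transfected, with a naive genotype. The astrocyte medium that the study describes for its coverslip cultures contains HB-EGF, a ligand of the EGF receptor, and no difference in medium between the groups is stated. The CMV promoter is active in most cell types, so the plasmid is not restricted to astrocytes, and since NT cultures received no plasmid, an effect of BRAF KE and one of the transfection cannot be told apart. The labels do not say whether the 3 cultures of a group came from separate preparations, so the spread between them may be technical. The KE and NT values of the 9 genes were known when the genes were chosen: they were selected on their normalized counts in these 6 cultures, and their differences are therefore given as a description and without a test.

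Granins are acidic proteins of the regulated secretory pathway. They are stored with peptide hormones in dense-core vesicles, and convertases such as PC1/3, the product of Pcsk1, cut several of them and proenkephalin into shorter peptides. VGF is a granin-like precursor whose mRNA is induced by neurotrophins through the RAS-ERK pathway. BDNF signals through the receptor TrkB and GDNF through GFRα1 with RET. Astrocytes can release peptides and trophic factors, although dense-core vesicles are best known from neurons and endocrine cells.

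The transfected gene followed the labels, with Braf between 34933 and 40978 normalized counts in KE and between 811 and 946 in NT. A normalized count is an estimated number of reads scaled to the depth of its culture. Approximate depths were 24500000 to 34100000 reads, the lowest being that of KE replicate 2. Genes with a mean of at least 10 over the 6 cultures were tested. Of these 15280 genes, 51.3% were called with an adjusted p-value under 0.05 from limma, 25.3% higher and 26% lower. The marker counts that follow are to be read beside these shares. Of 12 astrocyte markers, 7 rose, Gfap among them, and 2 fell. Their summed level was higher in KE (204662 to 210311) than in NT (152441 to 162701). Microglia were among the other cells present, and of 20 microglia markers, 19 were tested and 18 fell, with a summed level of 9428 to 12273 in KE and 59912 to 70692 in NT. Siglech was at 0 in every culture. Neuron markers were mixed, as 5 of 15 tested genes rose and 5 fell, with a summed level of 9305 to 10053 in KE and 11693 to 12358 in NT for all 20. Map2 (4851 to 5137 in KE and 6653 to 7334 in NT), Gap43 and Stmn2, the neuron markers with the highest means, were present in every culture and fell, whereas Nefl (log2FC 1.73), Eno2 (1.09), Nefm (1.00), Syn1 (0.52) and Tubb3 (0.43) rose. Slc17a6 was at 0 in all cultures. In the oligodendrocyte lineage list, 1 of 9 tested genes rose and 7 fell, with a summed level of 29787 to 34867 in KE and 38171 to 38399 in NT. Without KE replicate 3 or without NT replicate 2, 1 rose and 4 fell. In the vascular and fibroblast list, 3 of 9 tested genes rose and 3 fell, with a summed level of 2774 to 2917 in KE and 3044 to 3938 in NT. Without KE replicate 3, and likewise with no variance trend, 1 of these rose and 3 fell. In such mixed cultures, fewer cells of a type and less RNA per cell cannot be told apart, and the part of these cell types in the results below was not tested.

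Promoter sequences are shown first because a cAMP response element (CRE), the binding site of CREB family factors, is a feature that several of these genes share and that their choice did not use. RefSeq promoters on GRCm38.p6, from 250 bases before to 50 bases after each start site, matched 7 of the 9 genes with 14 windows, 7 of them for Bdnf and 2 for Gdnf. Vgf and Penk had no entry. The full CRE palindrome TGACGTCA was found in 3 of the 14 windows, those of Scg2, Chgb and Pcsk1, and in 1.79% of all 32851 promoter windows. The next lines give the 100 bases upstream of the start site, 5′ to 3′ on the strand of the gene, with the palindrome or, in Chga, its shorter form TGACG in capitals. Scg2 lies on the minus strand (chr1:79440027-79440126), Chgb on the plus strand (chr2:132781542-132781641), Pcsk1 on the plus strand (chr13:75089757-75089856) and Chga on the plus strand (chr12:102554841-102554940).
Scg2: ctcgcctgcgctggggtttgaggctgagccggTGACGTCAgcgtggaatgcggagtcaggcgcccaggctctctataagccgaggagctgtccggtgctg
Chgb: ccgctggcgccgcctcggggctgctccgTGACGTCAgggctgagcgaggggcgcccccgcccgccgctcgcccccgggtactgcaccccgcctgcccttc
Pcsk1: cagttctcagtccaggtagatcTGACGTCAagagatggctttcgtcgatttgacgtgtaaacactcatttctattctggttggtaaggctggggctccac
Chga: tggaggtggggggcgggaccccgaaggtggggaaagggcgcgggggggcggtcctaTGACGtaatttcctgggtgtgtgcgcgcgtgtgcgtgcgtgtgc

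The palindromes began 68, 72 and 78 bases before the start sites of Scg2, Chgb and Pcsk1. The CRE core TGACG, searched on both strands and contained in the palindrome, occurred in 7 of the 14 windows and in at least 1 window of each of the 7 genes, against 20.8% of all windows. It began 44 bases before the start in Chga, 30 in Scg3, 50 in Gdnf and 35 in 1 of the 7 Bdnf windows. The AP-1 letters TGANTCA were found in 1 Bdnf window and in 7.81% of all windows. The EGR letters GCGTGGGCG and the ETS letters CCGGAAGT were in none of the 14 windows, and in 0.612% and 3.89% of all. Scg2 also held both parts of the sequence bound by the repressor REST, GGACAGC and TTCAGCACC, on the opposite strand 14 and 7 bases before its start. The first is in 6.56% and the second in 0.371% of all windows. In Scg2 the 2 parts adjoin with no base between them, and whether REST binds this arrangement was not tested.

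**Figure D1:**
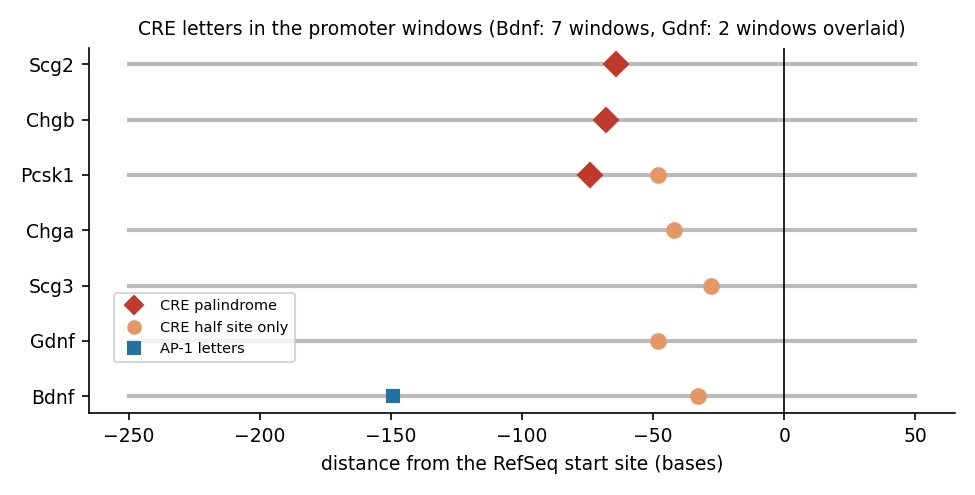
Position of CRE and AP-1 letters in the RefSeq promoter windows of 7 genes, in bases from the start site (vertical line). Diamonds mark the full palindrome in Scg2, Chgb and Pcsk1, circles the TGACG core alone and the square the AP-1 letters of a Bdnf window, and all CRE letters lie within 78 bases of a start site.

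Vgf (ENSMUSG00000037428) is a plus-strand gene of chromosome 5 (137055246 to 137062205 on GRCm39). It reached 523, 633 and 594 normalized counts in KE replicates 1, 2 and 3, compared with 70.8, 113 and 82.2 in NT replicates 1, 2 and 3. Every KE culture was far above every NT culture. Means with SD over 3 cultures were 583 ± 56.0 for KE and 88.6 ± 21.6 for NT, a ratio of 6.59. The difference in mean log2(normalized count + 1), termed log2FC here, was 2.73 with a standard error of 0.17. Among the 15280 genes with a mean of at least 10, which are the genes tested, 96 had a larger log2FC. Since Vgf was chosen with these values known, nothing is read from this rank.

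Among the other granins, Scg2, which encodes secretogranin II, the precursor of secretoneurin, was the one that differed most. Scg2 (ENSMUSG00000050711; chromosome 1 of GRCm39, 79412386 to 79417837, minus strand) was 59.2, 69.1 and 67.4 in the KE replicates and 6.09, 7.75 and 6.84 in the NT replicates. The groups did not overlap, and NT cultures were all low. The means were 65.2 ± 5.30 and 6.89 ± 0.83 (SD, n = 3 each), a ratio of 9.46 and a log2FC of 3.07 (standard error 0.27). Like Pcsk1 and Chgb, Scg2 carries the CRE palindrome shown above, and whether any factor binds it was not tested.

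Chga (ENSMUSG00000021194; chromosome 12 of GRCm39, 102520484 to 102531300, plus strand), which encodes chromogranin A, was 205, 220 and 189 in KE and 98.5, 117 and 128 in NT. All 3 KE values were above the NT values, with a smaller difference than for Vgf and Scg2. The means were 205 ± 15.5 and 115 ± 14.9 (SD, n = 3 each), a ratio of 1.79 and a log2FC of 0.84 (standard error 0.14).

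Chgb (ENSMUSG00000027350; chromosome 2 of GRCm39, 132622464 to 132637904, plus strand), which encodes chromogranin B, was 146, 125 and 147 in KE and 143, 223 and 237 in NT. The groups overlapped, because NT replicate 1 lay within the KE values while the other two NT cultures were higher. The log2FC was -0.49 (standard error 0.19). Chgb also carries the palindrome, whose part in any of these values was not tested.

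Scg3 (ENSMUSG00000032181; chromosome 9 of GRCm39, 75546929 to 75591396, minus strand) encodes secretogranin III, which binds chromogranin A and helps to sort it into vesicles. It was 2433, 2313 and 2381 in KE and 2212, 2322 and 2354 in NT. The groups overlapped and the log2FC was 0.05 (standard error 0.06). Scg3 was also the most even of the tested genes among the 9 between cultures of a group, with a residual SD of 0.04 on the log2 scale, below that of all but 5.04% of tested genes.

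**Figure D2:**
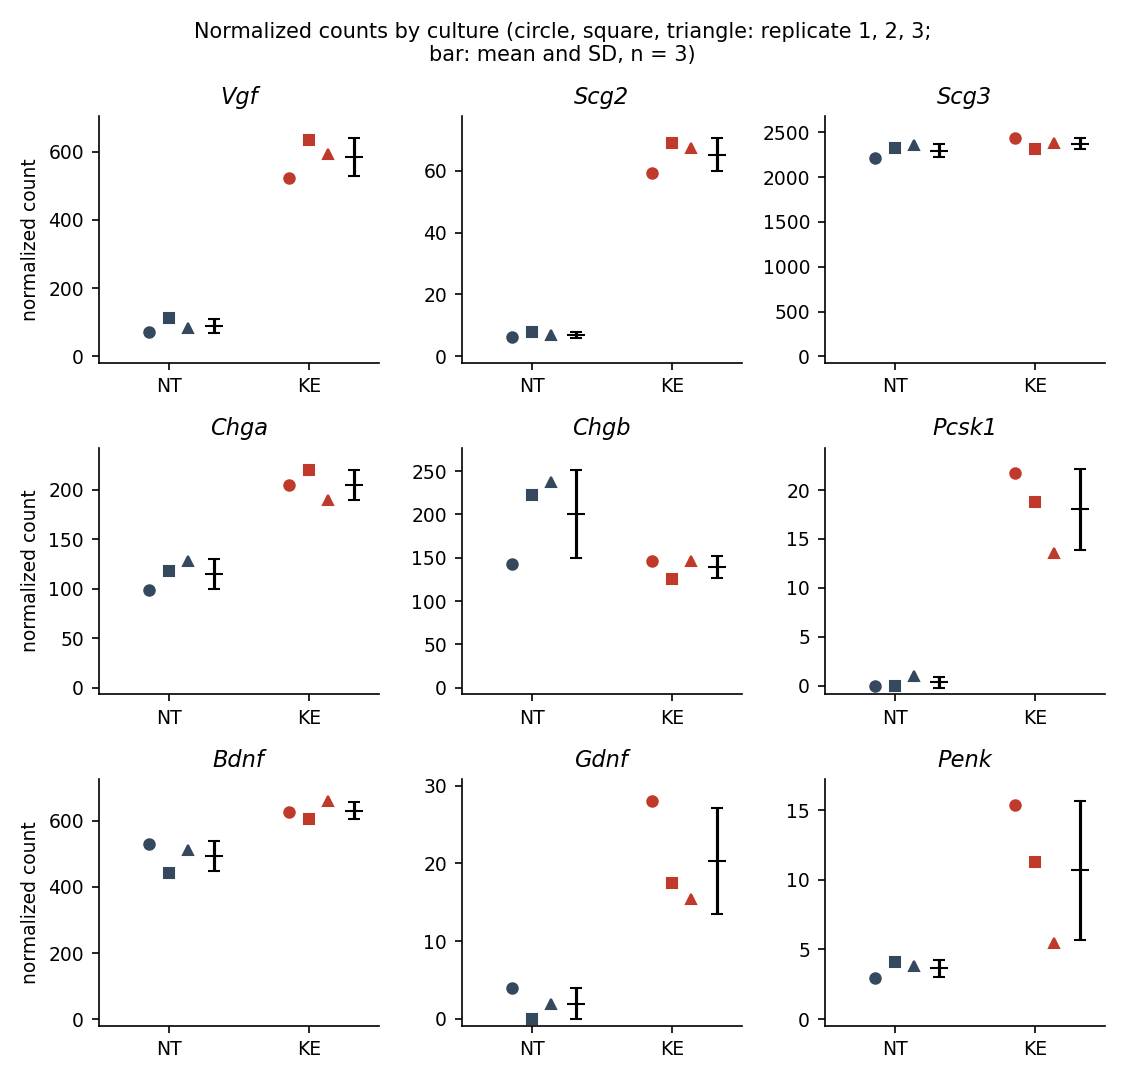
Normalized counts of the 9 genes in each NT (dark) and KE (red) culture on linear axes, with symbols for the replicate and black bars for the mean and SD of 3 cultures. KE and NT values are apart in 7 panels and overlap for Scg3 and Chgb, and the mean of Vgf is 88.6 in NT and 583 in KE.

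Pcsk1 (ENSMUSG00000021587; chromosome 13 of GRCm39, 75237284 to 75284898, plus strand) was nearly undetected in NT. Its normalized counts were 21.7, 18.8 and 13.6 in KE and 0, 0 and 0.953 in NT, which correspond to approximately 24, 15 and 15 reads against 0, 0 and 1. All KE cultures were above all NT cultures. The mean over the 6 cultures, 9.16, was under the minimum of 10, so Pcsk1 was not among the tested genes, and no fold is given for a group with 1 read.

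The other genes of precursor processing were taken from a list of 15, all tested, of which 5 rose and 4 fell. Of all tested genes, 51.3% were called with an adjusted p-value under 0.05, 25.3% higher and 26% lower. The median log2FC of the list was 0.06, and that of all tested genes was 0.0018. Pcsk1n, whose product proSAAS inhibits PC1/3, rose from 361 to 403 in NT to 556 to 703 in KE (log2FC 0.74). Cpe, the carboxypeptidase that trims the cut peptides, rose by a log2FC of 0.55, and Ctsl, a cathepsin that can cleave proenkephalin, by 0.44. Cpd (-0.85), a carboxypeptidase of the Golgi, Qpct (-0.70), which cyclizes peptide N-termini, and Pcsk7 (-0.27), a further convertase, were the largest falls. The call of Pcsk7 was lost without KE replicate 1 or 3, without NT replicate 1 or 2 and with no variance trend. Pcsk2, encoding the convertase PC2, was 19.9 to 30.5 in KE and 24.7 to 35.0 in NT and was not called (adjusted p = 0.27 from limma). Without KE replicate 1 or without NT replicate 1, 5 genes of this list were called in place of 9.

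Of the neurotrophic factors, Bdnf was well expressed in both groups and Gdnf was sparse. Bdnf (ENSMUSG00000048482; chromosome 2 of GRCm39, 109505045 to 109557475, plus strand) was 626, 607 and 660 in KE and 528, 441 and 511 in NT. All KE values were above the NT values by a modest margin. The means were 631 ± 26.9 and 494 ± 46.2 (SD, n = 3 each), a ratio of 1.28 and a log2FC of 0.36 (standard error 0.09). The gene has several promoters, and the table gives 1 value for all of its transcripts. An antisense RNA that overlaps Bdnf, Gm45346, was at most 2.50 in any culture. Whether strand was used in counting is not given in the sources used here, although the library kit keeps strand.

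Gdnf (ENSMUSG00000022144; chromosome 15 of GRCm39, 7840327 to 7867060, plus strand) was 28.0, 17.5 and 15.4 in KE and 3.96, 0 and 1.91 in NT, or approximately 31, 14 and 17 reads against 4, 0 and 2. The groups did not overlap, and KE replicate 1 was the highest. The ratio of the means, 20.3 ± 6.77 and 1.95 ± 1.98 (SD, n = 3 each), was 10.4. The log2FC of 3.08 had a standard error of 0.62, and the residual SD of 0.89 was larger than that of 99% of tested genes, so its size is the least precise among the tested genes of the 9. With a pseudocount of 0.1 in place of 1, it was 4.40, and with 5 it was 1.87. Without NT replicate 2, the culture listed at 0, it was 2.44.

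Of 14 further neurotrophic ligands, 11 were tested, 7 rose and 1 fell, with a median log2FC of 0.58. Gdf15, a stress-induced ligand of a GDNF-like receptor, was 163 to 225 in KE and 56.4 to 75.3 in NT (log2FC 1.54). Artn, encoding artemin of the GDNF family, was 24.9 to 25.6 in KE and 6.09 to 12.6 in NT (log2FC 1.41). Its NT mean was under the minimum of 10, so that it was tested through its KE values, and without Artn 6 of 10 rose and 1 fell, with a median of 0.44. Cdnf, unrelated to GDNF in sequence, rose by 1.39, and Clcf1, a ligand of the CNTF receptor, by 1.37. Ptn, encoding pleiotrophin, fell by 0.22. Its call was lost without KE replicate 3, without NT replicate 1 or 3 and with no variance trend. Ntf3, Ntf5 and Pspn were below the minimum and not tested. Without NT replicate 1, 5 of the 11 were called and none of them lower.

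Penk (ENSMUSG00000045573; chromosome 4 of GRCm39, 4132722 to 4141856, minus strand), the precursor of the enkephalins, was 15.3, 11.3 and 5.43 in KE and 2.97, 4.13 and 3.82 in NT. These values correspond to approximately 17, 9 and 6 reads against 3, 4 and 4. The groups did not overlap, but KE replicate 3 lay close to the NT cultures. The ratio of the means was 2.93, and with a mean of 7.16 over all cultures Penk was not tested. KE replicate 1 was highest and KE replicate 3 lowest for Penk, Gdnf and Pcsk1 alike, while Vgf and Scg2 were lowest in KE replicate 1.

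Most other neuropeptide precursors were sparse in these cultures, and only 12 of the 30 listed were tested. Of these 12, 5 rose and 3 fell, with a median log2FC of 0.54. Tac1, the precursor of substance P, was 31.2, 50.9 and 41.2 in KE while every NT culture lists it at 0. No fold is given for it. Cck, encoding cholecystokinin, was 59.5, 44.5 and 47.9 in KE and 5.89, 7.12 and 1.90 in NT (log2FC 3.23). Tac1 and Cck passed the minimum only through KE, as did Npy, which was not called, and the 9 genes at the minimum in both groups had 3 rises, 3 falls and a median log2FC of 0.20. Gal, encoding galanin, was 126 to 173 in KE and 32.3 to 60.2 in NT (log2FC 1.61). Adm (-0.61), the adrenomedullin precursor, Nucb2 (-0.35), the nesfatin precursor, and Dbi (-0.26), an abundant glial peptide with a mean of 20907 in KE, fell. The call of Nucb2 was lost in 9 of 14 alternatives, among them leaving out any 1 culture other than KE replicate 1, and without KE replicate 2 its log2FC was -0.22. The CRE palindrome was found in the promoter windows of 3 of the listed genes, Sst, Ucn and Cartpt, none of which was tested. With a minimum mean of 50, 4 genes of the list were left, all of them called, 1 higher and 3 lower.

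Of the 9 genes, 7 passed the minimum of 10, Scg2 and Gdnf only through KE. All KE values exceeded all NT values in 5 of the 7 (Vgf, Scg2, Chga, Bdnf and Gdnf), where 30.1% of all tested genes had KE above NT without overlap and 59.9% had no overlap in either direction. The same held for Pcsk1 and Penk, which were not tested. Because the same contrast was known when the genes were chosen, nothing is read from these counts.

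Levels can be compared between genes only per length, and for this the normalized counts were divided by kilobases of exon in Gencode vM39. In NT, Scg3 was highest with 272 ± 8.83 normalized counts per kb (SD, n = 3), followed by Bdnf (65.1 ± 6.08), Chgb (49.1 ± 12.5), Vgf (29.8 ± 7.28), Chga (17.6 ± 2.29) and Scg2 (2.74 ± 0.33). Penk (1.05 ± 0.17), Gdnf (0.53 ± 0.54) and Pcsk1 (0.039 ± 0.067) formed the low end. Neighbours in this order were separate in their ranges except for Chgb with Vgf, Penk with Gdnf and Gdnf with Pcsk1.

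In KE the order of levels per kb was Scg3 (282 ± 7.17), Vgf (196 ± 18.8), Bdnf (83.2 ± 3.55), Chgb (34.1 ± 3.04), Chga (31.4 ± 2.38), Scg2 (25.9 ± 2.11), Gdnf (5.52 ± 1.84), Penk (3.06 ± 1.43) and Pcsk1 (2.20 ± 0.50), with SD over 3 cultures. Vgf thus stood below Bdnf and Chgb in NT and above both in KE. The ranges of Chgb and Chga, of Gdnf and Penk and of Penk and Pcsk1 overlapped in KE. With the longest transcript as the length, Chga stood above Chgb in KE and above Vgf in NT, and no other place changed.

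**Figure D3:**
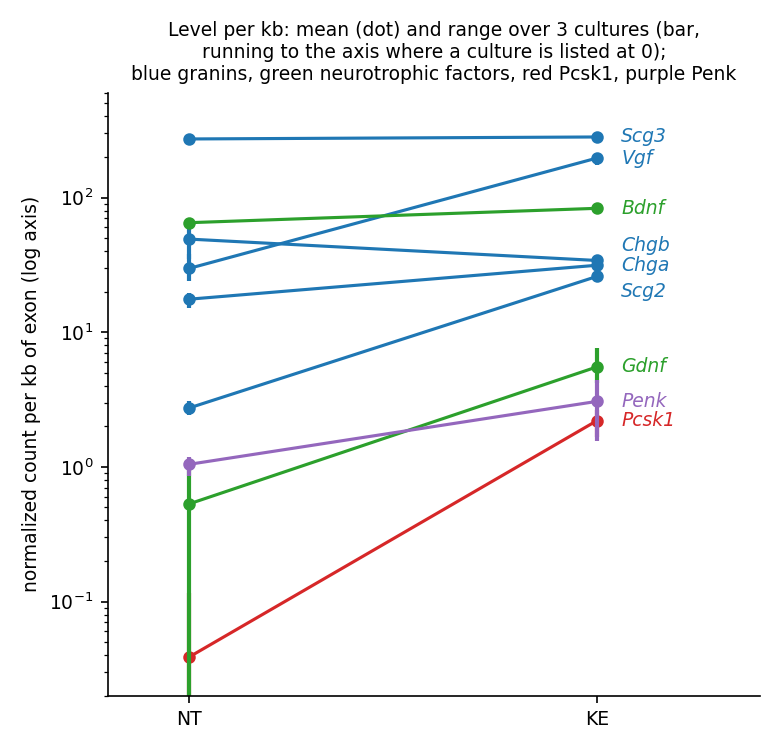
Mean normalized count per kb of exon in NT and KE on a log axis, with bars for the lowest and highest of 3 cultures. The line of Scg3 is nearly level, that of Vgf climbs from 29.8 to 196 and crosses those of Bdnf and Chgb, and Pcsk1 starts from 0.039 in NT.

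Receptors of the encoded peptides and factors were given by a list of 12, of which 10 were tested, 4 rose and 2 fell, with a median log2FC of 0.02. Without KE replicate 2 or 3, 2 rose and 2 fell, and without NT replicate 1, 2 rose and 3 fell. Ntrk2, which encodes TrkB, was 24294 to 25913 in KE and 23100 to 25891 in NT, overlapping groups with a log2FC of 0.03 (adjusted p = 0.757 from limma). Sort1, encoding the sorting receptor sortilin, also overlapped (log2FC 0.01), and both differences took the opposite sign under quantile normalization, whereas Sorcs2, a receptor of pro-neurotrophins, was 3792 to 3933 in KE and 1809 to 1926 in NT (log2FC 1.05, adjusted p = 8.57e-08 from limma). Ngfr, the p75 neurotrophin receptor, had a log2FC of 0.90 from a low level of 7.92 to 11.4 in NT, under the minimum in the mean, and a call that was lost in 8 of the 13 alternatives that could be computed. Without Ngfr, 3 of 9 receptors rose and 2 fell.

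For GDNF, Gfra1 rose by a log2FC of 0.20, a call lost without KE replicate 2 or 3, without NT replicate 1 and with no variance trend. Ncam1, an alternative receptor, fell by 0.71. Ret had overlapping groups and was not called. Its log2FC of -0.76 was -0.22 without KE replicate 1 and -0.48 without NT replicate 3. Among the enkephalin receptors, Oprm1 was at 0 in every culture and Oprd1 did not exceed 0.99, while Ogfr, which binds Met-enkephalin, was 4530 to 5154 in KE and 2626 to 3239 in NT (log2FC 0.77). C3ar1, which binds a peptide derived from VGF as well as the complement fragment C3a, was 380 to 508 in KE and 3487 to 5402 in NT (log2FC -3.43). It is also expressed by microglia, whose markers fell with a median log2FC of -3.26. C1qbp, a further receptor of that peptide, had a log2FC of -0.14 (adjusted p = 0.0687 from limma). It was called lower under quantile normalization and without NT replicate 1, with a log2FC of -0.17 in each. Of 10 related receptors, 7 were tested, Gfra2 (0.38) and Sorl1 (0.31) rose and Gfra4 (-0.58) fell. Each of these 3 lost its call when 1 of several cultures was left out, and without KE replicate 2 or without NT replicate 2 none of the list was called, while without KE replicate 1 or NT replicate 3 there was 1 call.

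Dense-core vesicles and their exocytosis were covered by 29 genes, of which 27 were tested, 8 rose and 3 fell, with a median log2FC of 0.16. Syt4, a synaptotagmin found on peptide-containing vesicles, was 419, 336 and 436 in KE and 106, 95.3 and 61.0 in NT (log2FC 2.20, adjusted p = 4.74e-06 from limma). Ptprn, which encodes the vesicle membrane protein IA-2, was 1707, 1717 and 1885 in KE and 629, 598 and 523 in NT (log2FC 1.60). The falls were those of Syt7 (-0.90), Rab27a (-0.54) and Vamp3 (-0.39). Rab27a lost its call without KE replicate 2 or 3, without NT replicate 1 and under quantile normalization. The neuronal fusion protein gene Snap25, also on the neuron list, was not called (log2FC -0.77).

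Among 18 genes of CREB family factors, their coactivators and the REST complex, all tested, 2 rose and 7 fell, with a median log2FC of -0.05. Atf3, a stress-induced factor that binds CRE sites, was 1747 to 1878 in KE and 561 to 726 in NT (log2FC 1.55), and Crtc2, a CREB coactivator, rose by 0.37. Creb1 was 1335 to 1664 in KE and 2242 to 2379 in NT (log2FC -0.64), Rcor2, a corepressor of REST, fell by 0.97 and Hdac2 by 0.47. Rest itself overlapped between groups (log2FC 0.05, adjusted p = 0.594 from limma). Over the whole table, 392 tested genes carried the CRE palindrome in a RefSeq promoter window, of which 28.3% rose and 24.7% fell, with a median log2FC of 0.04. Among all 11424 tested genes with a promoter entry, 26.6% rose and 26.4% fell, with a median of 0.01. A log2FC above 1 was found in 3.32% of the genes with the palindrome and in 4.88% of all those with an entry. This count was made after the values of the 9 genes had been seen.

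**Figure D4:**
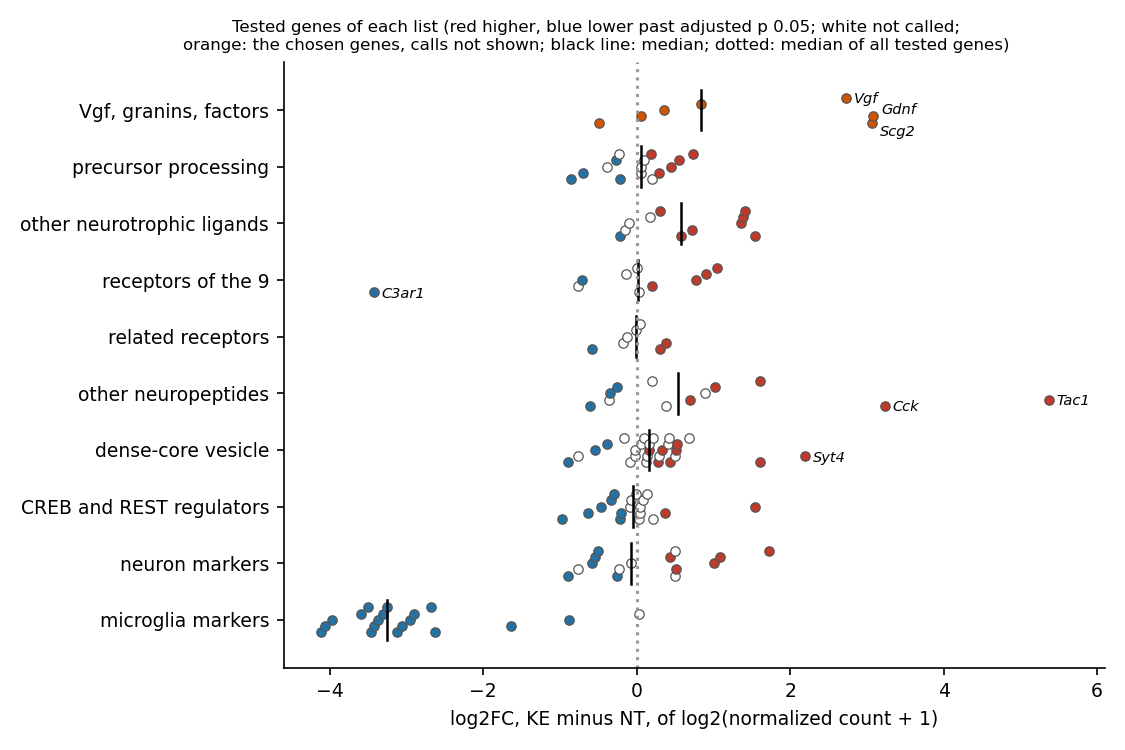
The log2FC (KE minus NT) of each tested gene by list, red for called higher, blue for called lower, white for not called and orange for the 7 tested of the 9 chosen genes, with a black line at each list's median and a dotted line at the median of all tested genes. Scg2, Gdnf and Vgf lie between 2.73 and 3.08, Tac1, Cck and Syt4 are the furthest right of the other lists, the place of Tac1 being set by the pseudocount, and C3ar1 lies among the values of the microglia markers.

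The genes whose 6 values were most like those of Vgf, by Euclidean distance of log2 values centred on each gene, were Ifit1bl2 (0.30), Apol9a (0.35) and 9330175E14Rik (0.37). Their log2FC values were 2.82, 2.72 and 2.76. Since 6 cultures in 2 groups set such a distance mainly by the size of the group difference, it describes the pattern only.

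The nearest tested genes on the chromosome showed smaller differences than Vgf, Scg2 and Gdnf. Since these genes were chosen with this contrast known, nothing is read from that. Next to Vgf, Ap1s1, at 1.64 kb, had overlapping groups (log2FC -0.01) and Plod3, at 29.7 kb, rose by 0.70. Nearest to Scg2, Acsl3, at 727 kb, rose by 0.50 and Ap1s3, at 167 kb, was not called (0.16). Gdnf had Wdr70 at 35.5 kb (0.19) and Egflam at 412 kb (-0.13, not called). Nearest to Bdnf, which was higher in KE, Kif18a, at 332 kb, fell by 0.77 and Lin7c, at 164 kb, by 0.33. Around Chgb, Shld1, at 27.8 kb, and Trmt6, at 8.22 kb, were not called, with log2FC of -0.21 and -0.14. Both neighbours of Chga rose with a smaller log2FC than its own, Golga5, at 56.2 kb, by 0.29 and Itpk1, at 3.54 kb, by 0.30. Nearest to Scg3, whose groups overlapped, Hmgcll1, at 331 kb, rose by 0.90 and Lysmd2, at 1.57 kb, by 0.25. Nearest to Pcsk1, Cast, at 280 kb, rose by 0.55. For Penk, Bpnt2, at 603 kb, fell by 0.34 and Uba52rt, at 159 kb, was not called (-0.32).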

How the data were processed

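RNA was sequenced from 3 KE and 3 NT cultures with a stranded mRNA kit. The authors deposited a normalized signal: Salmon gene counts divided by DESeq2 size factors. Trim Galore, STAR, Salmon and DESeq2 are named in the submitters' processing notes, which list GRCh38. The supplemental methods state GRCm39 with a Gencode annotation for mouse, and the table holds mouse identifiers. Approximate depth is the total of a culture divided by its most frequent low value. Of the low values, 75.3% to 77.7% were whole multiples of it within a tolerance of 0.1, so no count test was run, and precision rests on the spread between cultures.

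Genes with a mean of at least 10 entered a limma fit (version 3.58.1, R 4.3.3) of log2(normalized count + 1) on group, with a variance trend. Tests are two-sided and adjusted by Benjamini-Hochberg over 15280 genes at 0.05. For 1 gene alone, exact permutation over 3 against 3 cultures gives 0.1 at the least. The 9 genes, the lists and the tests were chosen with earlier results of these data known. Genes named from lists are up to 3 called rises and 3 called falls with the largest log2FC, all receptors of the encoded products, the 3 genes most like Vgf, and overlapping or nearest tested genes. Pcsk2, Snap25, Rest, Clcf1, the neuron markers that rose and the genes named as not detected were added after their values were seen, and some genes that the rule names are not reported here. Alternatives were other pseudocounts, filters and scalings, no trend, the replicate block and leaving out each culture. Positions are from Gencode vM39 on GRCm39. The fits were tested on simulated data.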

Additional observations from a re-analysis of the deposited data

How the results depend on the processing

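When each culture was left out in turn, the count of all called genes, 7844, lay between 6776 and 7199. Leaving out each culture gave 5 to 8 calls for precursor processing (9 with all cultures), 5 to 8 for neurotrophic ligands (8), 4 to 6 for the receptors of the 9 (6), 0 to 2 for related receptors (3), 6 to 7 for neuropeptide precursors (8), 9 to 11 for dense-core vesicles (11) and 7 to 9 for CREB and REST genes (9). The fit with 5 cultures has fewer samples by construction. With a minimum mean of 50, 4 neuropeptide precursors were called, as only 4 genes of the list were left. For the oligodendrocyte lineage list, 5 genes were called in place of 8 with no variance trend, without KE replicate 3 and without NT replicate 2. The other totals of called genes per list moved by at most 1.5 times. Separate counts of rises or of falls moved by more in some lists, among them the receptors of the 9 and the vascular and fibroblast list. Of the called genes named from the lists, those recomputed one by one kept their direction. Clcf1 and the named markers were not recomputed in this way. Of the genes not called, Ntrk2 was at -0.03 under quantile normalization, -0.0048 without KE replicate 2 and -0.01 without NT replicate 1, and Sort1 lay between -0.02 and -0.0016 under quantile normalization and without KE replicate 3, NT replicate 1 or NT replicate 2. Without pseudocount changes, the log2FC of Vgf lay between 2.58 and 2.91, that of Scg2 between 3.00 and 3.15, that of Chga between 0.73 and 0.96, that of Bdnf between 0.28 and 0.41, that of Scg3 between 0.02 and 0.07, that of Chgb between -0.72 and -0.36 and that of Gdnf between 2.44 and 3.60 over the alternatives that could be computed. With a pseudocount of 5, Scg2 had a log2FC of 2.56. Gdnf fell under the minimum without KE replicate 1 or without KE replicate 2, and Pcsk1 passed it without any 1 of the NT cultures.

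Whether same-numbered KE and NT cultures share a preparation is not stated. Their deviations from the group means correlated across genes with r of 0.059 to 0.066, each the highest for its cultures. Pairs with different numbers had r of -0.050 to -0.010. So small an r was not treated as pairing, and the main fit had no replicate block. Adding a replicate block gave 8046 calls, 7669 of them also without it, and Ngfr and Nucb2 lost their calls among the genes named from the lists. The low genes Pcsk1, Gdnf and Penk are limited by depth, with at most 31 approximate reads in a culture.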
